A study of Homo sapiens with 6 samples.

Results

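COMMD1, COMMD2, COMMD4, COMMD5, COMMD6, COMMD7, COMMD8, COMMD9 and COMMD10, the paralogs of COMMD3, are described here together with DSCR3, the retriever subunit now named VPS26C, in human neural stem cells. The 10 genes were chosen by symbol, with no measured value in the rule. They are 10 of the 26485 symbols counted and 10 of the 12937 genes that passed the filter on low counts, so no member was lost to the filter. The cells were AF22, an established line of neuroepithelial-like stem cells derived from induced pluripotent cells. The control group, labelled shControl with genotype WT, held 3 libraries, and the BMI1/COMMD3-BMI1 knockdown group held 3. The group name shControl marks short hairpin RNA controls, and the labels give no other agent, dose or time. They do not say how many hairpins or derivative lines were used, nor whether the libraries of a group came from separate cultures, so the p-values rest on library-to-library spread that may be only technical.

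COMMD proteins are small and share a carboxy-terminal COMM domain through which they pair with each other. In the cell they assemble into a ring that CCDC22 and CCDC93 hold together. This ring joins retriever, a trimer of VPS35L, VPS26C and VPS29, to form the commander complex, which returns membrane proteins such as integrins and lipoprotein receptors from endosomes to the cell surface. COMMD1, the founding member, is also known for roles in copper handling and in the turnover of NF-kB. COMMD3 is the upstream neighbour of BMI1, and the annotated read-through transcript COMMD3-BMI1 joins both genes, which ties the COMMD family to this knockdown.

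Total counts per library ranged from 4962745 to 9640349, and the members held 86 to 663 counts per library. BMI1, the stated target, was at 85.1, 90.0 and 87.4 CPM (read counts per library scaled to a common total) in control libraries 1 to 3 and at 39.9, 21.5 and 26.2 CPM in the knockdown libraries, so every knockdown library was below every control. The log2 fold change of BMI1 was -1.61 in the unpaired edgeR fit, with an adjusted p of 0.163. The paired edgeR fit, with the library number as a block, gave -1.64 and an adjusted p of 0.00836. The target itself thus did not pass an adjusted p of 0.05 in the unpaired fit. COMMD3-BMI1 was listed at 0 counts in all 6 libraries. On the same strand it shares 904 bases of the COMMD3 exons (27.3%) and 1000 bases of the BMI1 exons (23.3%). How shared reads were assigned is not given, so the 0 does not show that the read-through transcript was absent. The counts of COMMD3 and BMI1 are uncertain to that extent. All 10 neural stem cell markers examined averaged at least 10 CPM in the controls. Their sum ran from 3747 to 4045 CPM in the controls and from 3218 to 4377 with knockdown, and 0 passed the paired fit. In knockdown library 2, NES was at 577 CPM against 975 to 1068 in the controls. SOX9 was at 282 CPM in that library against 213 to 245 in the controls. The summed mesenchymal markers ran from 1546 to 1880 CPM in the controls and from 1933 to 2630 in the knockdown libraries. All 7 mesenchymal markers were above 1 CPM in the controls. Of the 6 neuron markers 3 averaged at least 1 CPM in the controls, with MAP2 at 467 to 593 CPM and TUBB3 at 88.9 to 199 CPM over the 6 libraries, and RBFOX3 was at 0. Their sum was 619 to 670 CPM in the controls and 641 to 732 CPM with knockdown. Of the 4 pluripotent markers, LIN28A and POU5F1 averaged at least 10 CPM in the controls, and NANOG and ZFP42 were at 0. Knockdown library 2 stood apart from the other 5 libraries on the first principal component, at 40.2 against -25.5 to 11.5. It also had the lowest BMI1 level, 21.5 CPM. Member values that moved by over 1.5 times without knockdown library 2 are given both ways. Libraries with the same number deviated from their group means together, so values are also given from a paired fit with the library number as a block. Across all genes, 0.00% passed an adjusted p of 0.05 in the unpaired fit, and 1296 of 12937 passed in the paired fit.

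The members lie on 10 different chromosomes. Their promoters were read for a shared motif because one sequence stood near the start of several of them: the E-box CACGTG, which is its own reverse complement, and its extended form GTCACGTG or, on the other strand, CACGTGAC. The motif was chosen after the promoter sequences had been seen. RefSeq promoter windows (GRCh38.p14, 250 bases before to 50 after a start) were found for 9 of the 10 members, all but COMMD5. The extended form was present for 4 of these 9, COMMD4, COMMD8, COMMD9 and DSCR3, and for 2.93% of all 27305 genes with a window. CACGTG alone was present for 5 of the 9, with COMMD10 added, and for 8.77% of all genes. Per window the members held the extended form in 4 of 15 and CACGTG in 5 of 15, against 2.40% and 7.26% of all 35116 windows. COMMD3 held the extended form too. The stretches are shown because the same letters stand in front of DSCR3, which passed the paired fit, and of COMMD4, COMMD8, COMMD9 and COMMD10, which did not, and capitals mark the motif on the strand of the gene.
COMMD3 (chr10:22316369-22316396, plus strand, core starting 8 bases before the start): gcggcgcgtGTCACGTGgtgtgcgtgtc
COMMD4 (chr15:75336007-75336034, plus strand, 45 bases before): ttagtccaaGTCACGTGatcgtcgactc
COMMD8 (chr4:47463708-47463735, minus strand, 22 bases before): ccggcgagaGTCACGTGggcgagtcgta
COMMD9 (chr11:36289444-36289471, minus strand, 36 bases before): acagcgacagcCACGTGACctcgcttcc
DSCR3 (chr21:37267399-37267426, minus strand, 81 bases before): cgctgcgagGTCACGTGagccactgccg
COMMD10 (chr5:116085421-116085448, plus strand, 30 bases before, CACGTG only): tgctgccgaatCACGTGgaacggtattc
COMMD8 held another match 20 bases after its start, gccagccttgaCACGTGACccaagcccc. A match is a description of the letters and not a bound site, and no binding was measured here.

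The question for each member was whether its RNA level changed with the BMI1/COMMD3-BMI1 knockdown. No member passed an adjusted p of 0.05 in the unpaired fit, and 1 did in the paired fit, DSCR3, which fell to 76.6% of its control level. In the paired fit 5.39% of all tested genes passed as lower and 4.63% as higher, so 1 lower and 0 higher among 10 members was close to the background. At an unadjusted p under 0.05 the unpaired fit gave 2 members, DSCR3 and COMMD4, against 14.4% of all genes, and DESeq2 and limma voom gave 0 at an adjusted p of 0.05. The paired fit gave 4, with COMMD6 and COMMD9 added, against 28.7% of all genes. The median log2 fold change of the members was -0.03 in the unpaired fit, beside -0.00 over all genes, and the median size was 0.17 beside 0.15. The libraries of the groups did not overlap for 2 members, 1 lower and 1 higher, where 20.5% of all genes did not overlap, 11.2% lower and 9.28% higher. The direction was the same in all 3 library pairs for 6 of the 10 members, against 52.3% of all genes. Bulk RNA cannot tell fewer cells of a type from less RNA per cell, and this holds for every level below.

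**Figure D1:**
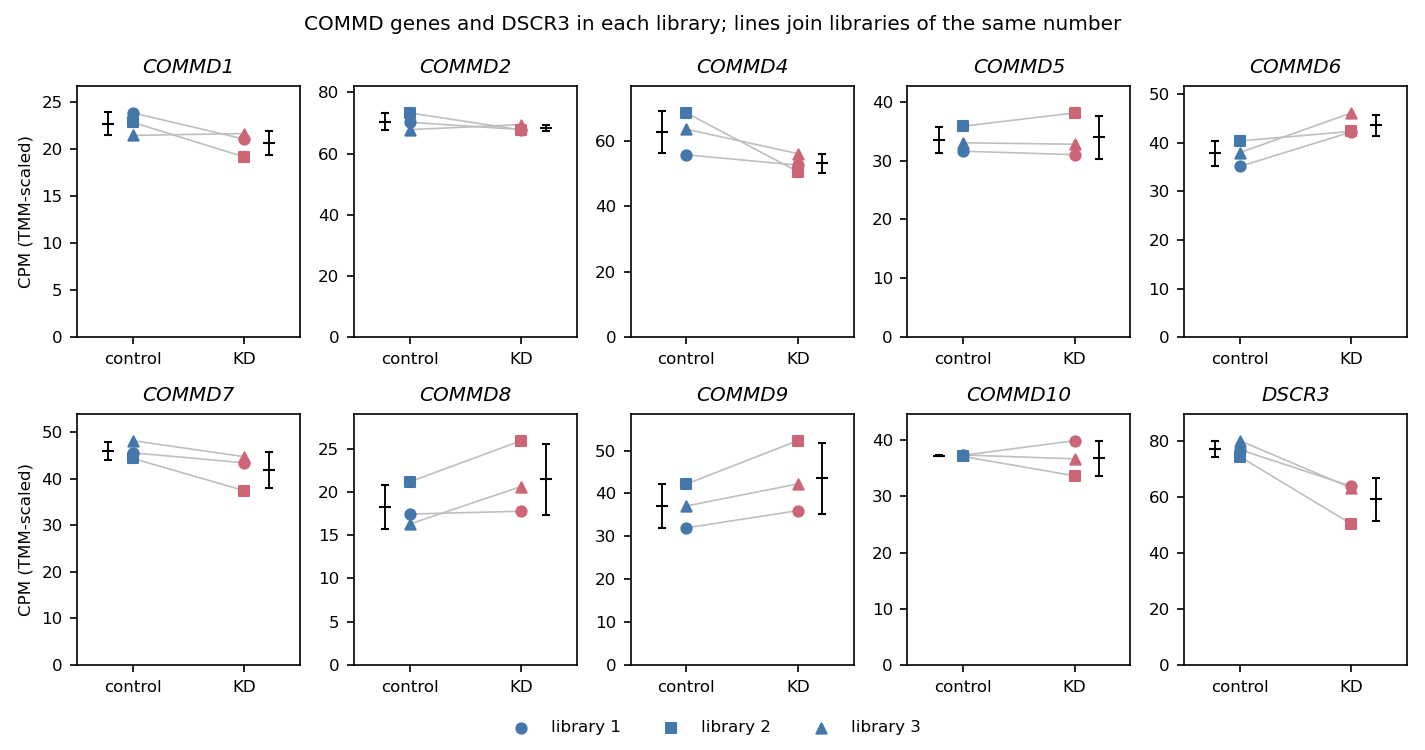
CPM of each of the 10 members (panels, linear axis from 0) in the 3 control and 3 knockdown libraries; each point is a library, lines join libraries with the same number, and error bars are the group mean ± SD. DSCR3 is lower in all 3 pairs with no overlap (74.5 to 80.2 CPM against 50.4 to 63.9), COMMD6 is higher with no overlap, and the other 8 members overlap.

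DSCR3 is the retriever subunit that sits where VPS26A or VPS26B sits in the retromer. It lies on the minus strand at chr21:37223420-37267919 (GRCh38, GENCODE 29). It was at 77.0, 74.5 and 80.2 CPM in the controls and at 63.9, 50.4 and 63.3 CPM in the knockdown libraries. Every knockdown library was below every control library, and knockdown library 2 was the lowest of the 6. The mean was 77.2 ± 2.87 CPM (SD, n = 3) in the controls and 59.2 ± 7.61 CPM (SD, n = 3) in the knockdown group.

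The log2 fold change of DSCR3 in the unpaired edgeR fit was -0.39 (SE 0.110, 95% interval -0.64 to -0.13), with an adjusted p of 0.258. The paired fit gave the same size, -0.39 (SE 0.0823, interval -0.58 to -0.21), and an adjusted p of 0.0290. The differences within the library pairs were -0.27, -0.56 and -0.34 on the log2 scale. The fall was thus present in each pair and deepest in the pair that holds knockdown library 2. For BMI1 the differences in the same pairs were -1.09, -2.05 and -1.73. The part of the depth of knockdown was not tested. Without knockdown library 2 the unpaired value of DSCR3 was -0.28, and without the whole pair its paired value was -0.31. The value was negative in all 23 settings tried. It passed in 8 of the 10 paired settings, not with DESeq2 (adjusted p 0.0932) nor without pair 3 (0.0573), and in 0 of the 12 unpaired alternatives, whose adjusted p ran from 0.0677 to 0.563. The summed mesenchymal markers did not overlap between the groups, by a narrow margin (control maximum 1880 CPM, knockdown minimum 1933 CPM). Taken singly, the markers overlapped. In the paired fit 2 of the 7 were higher and 0 lower, beside 4.63% and 5.39% of all genes. The part of these markers in the result was not tested.

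The raw counts of DSCR3 were 419, 482 and 556 in the controls and 309, 373 and 604 in the knockdown libraries, which puts the counting error of a library at 4.07 to 5.69%. That is smaller than the drop in each pair. Counting intervals cover counting error only. An opposite-strand gene, AP001412.1, overlaps 136 bases of its exons, 1.46% of their length, and the strand setting of the counting is not given in the sources used here.

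COMMD6, a short family member that consists of little more than the COMM domain, lay on the other side. It was at 35.1, 40.3 and 37.9 CPM in the controls and at 42.2, 42.3 and 46.1 CPM in the knockdown libraries. The groups did not overlap, although control library 2 came close to knockdown libraries 1 and 2. The log2 fold change was 0.20 (SE 0.101, interval -0.03 to 0.44, adjusted p 0.400), and pairing brought the adjusted p to 0.174. Without pair 2 the paired value was 0.27 with an adjusted p of 0.0364, so that setting gave 2 members past the threshold.

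COMMD4 was at 55.7, 68.5 and 63.5 CPM in the controls and at 52.5, 50.5 and 56.1 CPM in the knockdown libraries. Its highest knockdown library and lowest control library crossed by less than 1 CPM. The log2 fold change was -0.24 (SE 0.104, adjusted p 0.344) unpaired and -0.24 (SE 0.0899, adjusted p 0.121) paired. It was lower in all 3 pairs, by -0.08, -0.44 and -0.18, so the difference was largest in pair 2. Without that pair the paired value was -0.14.

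COMMD9 and COMMD8 were higher in all 3 pairs without passing either fit. COMMD9 was at 32.0, 42.2 and 37.1 CPM in the controls and at 36.0, 52.3 and 42.2 CPM in the knockdown libraries. Its libraries followed the pair number as much as the group, with library 1 lowest and library 2 highest in both groups. The log2 fold change was 0.23 (SE 0.160, adjusted p 0.529) unpaired, and the paired SE was 0.0860 with an adjusted p of 0.123. COMMD8, the member with the fewest counts, was at 17.5, 21.2 and 16.3 CPM and then at 17.8, 26.0 and 20.6 CPM, a log2 fold change of 0.24 (SE 0.178, adjusted p 0.566). Without knockdown library 2 each came to 0.08 in the unpaired fit. With the whole of pair 2 left out the paired values were 0.21 for COMMD8, from 0.24, and 0.18 for COMMD9, from 0.23, so within pairs they moved less.

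COMMD7, known as a regulator of NF-kB signalling, was lower in all 3 pairs, by -0.07, -0.24 and -0.11. It was at 45.6, 44.4 and 48.2 CPM in the controls and at 43.4, 37.4 and 44.7 CPM in the knockdown libraries, where libraries 1 and 2 were below all controls and library 3 was not. The log2 fold change was -0.14 (SE 0.105, adjusted p 0.569). It was -0.06 without knockdown library 2, and the paired value was -0.09 without pair 2.

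COMMD1 was at 23.9, 22.9 and 21.5 CPM in the controls and at 21.1, 19.2 and 21.7 CPM in the knockdown libraries. The groups overlapped, and the log2 fold change was -0.14 (SE 0.123, interval -0.42 to 0.14, adjusted p 0.628). It was -0.08 without knockdown library 2, and the paired value was -0.07 without pair 2. RPSAP26, a ribosomal protein pseudogene on the same strand, overlaps 741 bases of its exons, 31.0% of their length. COMMD7 likewise shares 702 bases, 27.2%, with FO393400.1 on the same strand, so the counts of both genes are uncertain to that extent. COMMD5 shares 389 bases, 13.3%, with ZNF7 on the opposite strand. Also with opposite-strand genes, COMMD1 shares 251 bases, 10.5%, with AC018462.1 and 81 bases, 3.39%, with CCT4. COMMD10 shares 103 bases, 4.18%, with AC034236.2, again on the opposite strand. COMMD2, COMMD4, COMMD6, COMMD8 and COMMD9 have no annotated exon overlap.

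COMMD2, COMMD5 and COMMD10 showed the smallest differences of the family. COMMD2 averaged 70.4 ± 2.74 CPM (SD, n = 3) in the controls and 68.3 ± 0.979 CPM (SD, n = 3) in the knockdown group, a log2 fold change of -0.04 (interval -0.23 to 0.14; -0.00 paired without pair 2). COMMD10 averaged 37.3 ± 0.141 CPM (SD, n = 3) in the controls, a spread below its counting error of 5.35 to 7.20% per library. With knockdown it averaged 36.7 ± 3.13 CPM (SD, n = 3), a log2 fold change of -0.02 (interval -0.26 to 0.21). COMMD5 averaged 33.5 ± 2.16 CPM (SD, n = 3) and 34.0 ± 3.69 CPM (SD, n = 3), a log2 fold change of 0.02 (interval -0.25 to 0.29). The signs of COMMD5 and COMMD10 changed when knockdown library 2 was left out, to -0.07 and 0.03. The 95% intervals of all 9 COMMD members lay between -0.48 and 0.64, which bounds the changes these libraries allow without showing that there were none.

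**Figure D2:**
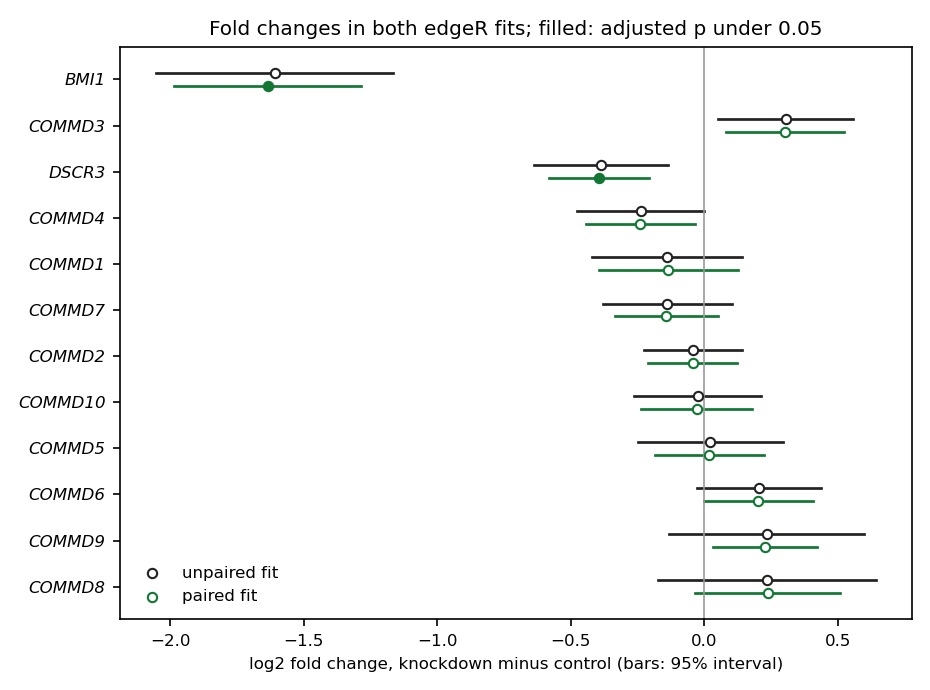
Log2 fold change of each member, BMI1 and COMMD3, knockdown minus control, with 95% intervals from the unpaired and paired edgeR fits; 0 is no change. The interval of DSCR3 lies below 0 in both fits (-0.64 to -0.13 unpaired, -0.58 to -0.21 paired). Among the other members every unpaired interval except that of COMMD4 crosses 0. In the paired fit those of COMMD4 (-0.44 to -0.04), COMMD6 (0.0004 to 0.41) and COMMD9 (0.03 to 0.42) do not cross 0.

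Summed over the 9 COMMD members, the level was 365.7 ± 18.6 CPM (SD, n = 3) in the controls and 363.1 ± 9.97 CPM (SD, n = 3) in the knockdown group, a difference far below the spread between libraries. COMMD3 was higher in the knockdown libraries, at 31.6, 33.4 and 32.5 CPM against 23.9, 27.5 and 27.4 CPM, with a log2 fold change of 0.31 (SE 0.110, adjusted p 0.288; paired adjusted p 0.0804). Of the per-length total of the 10 COMMD genes, COMMD3 made up 6.54, 6.93 and 7.28% in the controls and 8.39, 8.54 and 8.25% with knockdown. The share of COMMD6 went from 11.4 ± 0.342% to 12.9 ± 0.505% (SD, n = 3), and that of COMMD4 from 8.05 ± 0.521% to 6.70 ± 0.332% (SD, n = 3). The shares of the groups did not overlap for these 3 genes, nor for COMMD1 and COMMD2. For COMMD2 the margin was narrow, with a control minimum of 12.19% and a knockdown maximum of 12.18%. In CPM the groups overlapped for COMMD1 and COMMD2, and 20.5% of all tested genes did not overlap in CPM. Shares add up to the same total, so a higher share of some genes lowers that of others.

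Levels of different genes were compared as CPM per kilobase of merged exons. COMMD7 had the highest control level, at 17.8 ± 0.757, followed by COMMD10 at 15.1 ± 0.0574, COMMD2 at 14.4 ± 0.558 and COMMD6 at 13.0 ± 0.907 (SD, n = 3 each). COMMD5 at 11.5, COMMD8 at 10.4, COMMD1 at 9.51, COMMD4 at 9.23, DSCR3 at 8.30 and COMMD3 at 7.92 came next, and COMMD9 was lowest at 5.63 ± 0.776. The ranges over the 3 control libraries did not overlap for 3 neighbours in this order: COMMD7 from COMMD10, COMMD10 from COMMD2, and COMMD3 from COMMD9. The gap between COMMD10 (minimum 15.06) and COMMD2 (maximum 14.95) was smaller than the counting error of either gene. The highest level was 3.17 times the lowest. With knockdown DSCR3 came to 6.36 ± 0.818, rank 11 of 11, while COMMD6 stood at rank 2 and COMMD3 at rank 7. The knockdown libraries of DSCR3 (5.42 to 6.87) overlapped those of COMMD9 (5.46 to 7.93), next in rank. Those of COMMD6 overlapped the libraries of COMMD7 and COMMD10. The order depends on the length used: per kilobase of the longest transcript the ratio was 2.21, COMMD10 came first at 25.4 and COMMD1 second at 25.0.

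**Figure D3:**
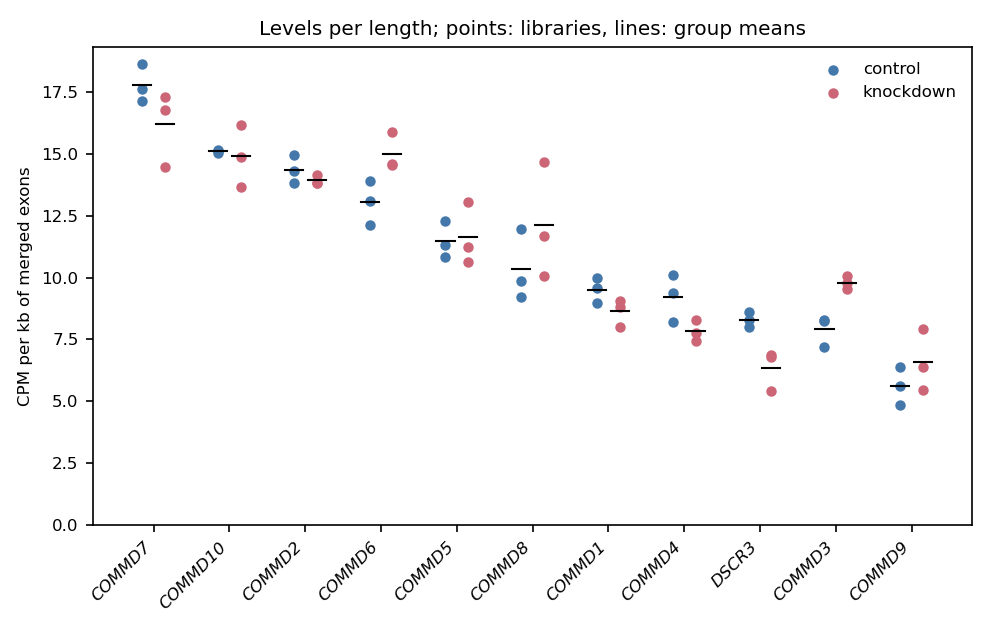
Level of the 10 members and COMMD3 in CPM per kilobase of merged exons (linear axis from 0), ordered by control mean; points are libraries and lines are group means. Control means run from 17.8 for COMMD7 to 5.63 for COMMD9. DSCR3 is the lowest of the knockdown means, at 6.36, though its knockdown libraries overlap those of COMMD9.

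The balance of DSCR3 with its partners was examined as ratios of raw counts within a library, which do not depend on the scaling between libraries. The 14 ratios were chosen after the values had been seen and all share DSCR3, so they are no independent support for its fall. The ratio to VPS35L, its retriever scaffold, was 0.780, 0.810 and 0.890 in the controls and 0.614, 0.695 and 0.773 in the knockdown libraries. To VPS29, the subunit that retriever shares with retromer, it was 1.29, 1.14 and 1.31 and then 1.04, 0.899 and 0.918. To COMMD7 it was 1.69, 1.68 and 1.66 in the controls and then 1.47, 1.35 and 1.41. The control values lay closer together than counting error (4.84 to 6.90% per library for COMMD7), so no constancy is read from them. In 11 of the 14 ratios, 6 of them to the 9 COMMD members, every knockdown library was below every control library. The exact two-sided permutation test gave p = 0.1 for each of the 11, the smallest that 3 against 3 libraries allow, and 0.127 after adjustment over the 14. The ratios to COMMD4, COMMD8 and COMMD9 overlapped.

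Across the 6 libraries, DSCR3 followed COMMD7 most closely among the members (Pearson r of log2 CPM 0.926) and ran opposite to COMMD8 (-0.813). COMMD8 and COMMD9 had an r of 0.917, and COMMD7 and COMMD8 one of -0.879. Of the 45 pairs of members, 24 had an r above 0. The points share their libraries, depth and group, so these values describe the 6 libraries and carry no test. Among 10437 genes with a mean of at least 10 CPM, DDX39A (r 0.997), ANKLE2 (0.996) and HRAS (0.996) were most like DSCR3, and 224 genes had an r above 0.95. DDX39A, which codes for a DEAD-box RNA helicase, was at 97.0, 94.8 and 99.98 CPM in the controls and at 77.1, 55.4 and 73.7 CPM in the knockdown libraries. From highest to lowest it ordered the 6 libraries as DSCR3 did.

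The other subunits of commander did not pass in either fit: 0 of 5, with a median log2 fold change of -0.03. CCDC22, the coiled-coil subunit that binds the COMMD ring, was the lowest, at 31.4, 29.2 and 32.9 CPM in the controls and 22.5, 24.7 and 28.0 CPM with knockdown. Its groups did not overlap, and the log2 fold change was -0.31 (SE 0.123, adjusted p 0.312 unpaired and 0.0922 paired; 0.0241 paired without pair 2). CCDC93, its partner, was at -0.03, VPS35L, listed as C16orf62, at -0.13 (adjusted p 0.686; -0.02 without knockdown library 2), VPS29 at 0.01 and DENND10, listed as FAM45A, at -0.03. The sign of VPS29 and of FAM45A turned in some settings, so no direction is given for them.

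Retromer, the related complex that recycles other cargoes, had 0 of 4 genes past the threshold in either fit. VPS26B, a paralog of DSCR3, was at 0.19 (SE 0.121, adjusted p 0.500; 0.06 without knockdown library 2), VPS26A at -0.06 and VPS35 at -0.00 on the log2 scale. The WASH complex, which builds branched actin on endosomes and works with commander, had 0 of 6, with WASHC4, listed as KIAA1033, at 0.18 (adjusted p 0.491), WASHC2C, listed as FAM21C, at 0.08 and WASHC5, listed as KIAA0196, at 0.06. Sorting nexins had 0 of 7: SNX17, the adaptor that hands cargo to retriever, was at 0.09 (adjusted p 0.630), SNX1 at 0.14 and SNX3 at 0.08. Without knockdown library 2, KIAA1033 was at 0.12, FAM21C at 0.01, SNX1 at 0.07 and SNX17 at 0.15. SNX31 was listed at 0 counts in all libraries.

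Membrane proteins that endosomal sorting complexes recycle were the list with the most calls, 6 higher and 2 lower of 16 in the paired fit, beside 4.63% and 5.39% of all genes, and 0 in the unpaired fit. The list was written with earlier results of these data known. Its median log2 fold change was 0.22 in the unpaired fit. Within pairs 1, 2 and 3 the medians were 0.04, 0.35 and 0.25. The groups did not overlap for 3 higher and 1 lower of the 16, beside 9.28% and 11.2% of all genes. The direction was the same in all 3 pairs for 10 of the 16, beside 52.3% of all genes. ITGA5, the alpha subunit of the fibronectin receptor, was at 125.7, 166.3 and 167.4 CPM in the controls and at 165.2, 304.0 and 261.0 CPM with knockdown (paired log2 fold change 0.64, SE 0.0890, adjusted p 0.0211). It was higher in each pair, but knockdown library 1 lay within the control range. ITGB1, its beta partner and a known commander cargo, went from 578.1, 624.0 and 605.7 CPM to 702.4, 801.6 and 757.4 CPM, with no overlap (0.32, adjusted p 0.0266). In the paired fit AXL, a receptor tyrosine kinase, rose by 0.53 (adjusted p 0.0266) and VLDLR, a lipoprotein receptor, by 0.45 (0.0392). APP, the amyloid precursor protein, rose by 0.30 (0.0343) and SLC2A1, the glucose transporter GLUT1, by 0.24 (0.0498) in the same fit. The groups overlapped for AXL and SLC2A1 and did not for VLDLR and APP. Over the paired settings the adjusted p of VLDLR ran up to 0.0669.

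The lower cargoes were NOTCH2 and SORL1. NOTCH2, a Notch receptor, was at 210.6, 227.2 and 224.2 CPM in the controls and at 157.6, 173.0 and 164.4 CPM with knockdown, with no overlap and little spread in either group (paired -0.42, SE 0.0607, adjusted p 0.0211). SORL1, a sorting receptor for APP, went from 24.4 ± 5.49 CPM to 16.7 ± 3.99 CPM (SD, n = 3 each). It was lower in each pair (paired -0.56, adjusted p 0.0268), though the groups overlapped. Of the rest, ATP7A, a copper transporter, was at 0.35 paired (adjusted p 0.101), LRP1 at 0.22 and IGF2R at 0.13. In the unpaired fit without knockdown library 2, VLDLR was at 0.28 (from 0.47), ATP7A at 0.18 (from 0.34), LRP1 at -0.02 (from 0.26) and IGF2R at 0.00 (from 0.15). In the paired fit without pair 3, APP (0.227), ITGB1 (0.154), SORL1 (0.0755) and SLC2A1 (0.400) lost the threshold, and without pair 1 so did APP (0.0754), ITGB1 (0.0765) and SLC2A1 (0.169). The summed mesenchymal markers did not overlap between groups either, and their part in these levels was not tested.

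**Figure D4:**
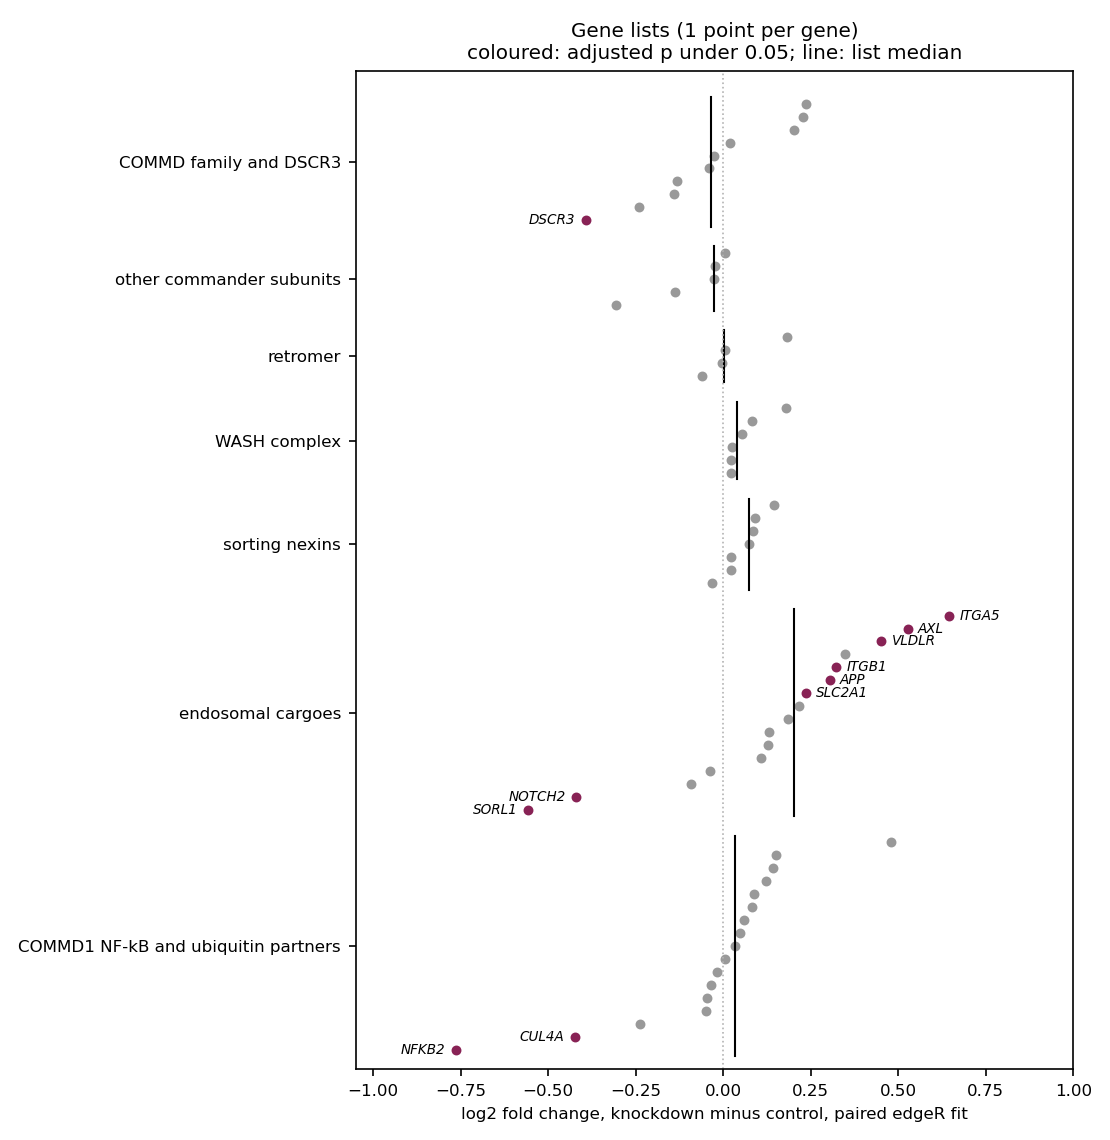
Paired log2 fold change of each tested gene (points) in the members and the related gene lists, with list medians as lines and genes past an adjusted p of 0.05 coloured. DSCR3 is the only coloured gene among the members, commander, retromer, WASH and sorting nexin lists, while 8 of 16 cargo genes are coloured, 6 higher and 2 lower.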

How the data were processed

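The authors deposited 1 table per library with 26485 gene symbols and whole-number read counts, unnormalized as judged from the values. The submitters' processing notes name bedtools, Trim Galore 0.6.6, STAR 2.7.10a and, as genome build, hg38. How reads were assigned to genes, with which gene models and strand option, is not given in the sources used here. The library kit was directional, per the labels' protocols. Groups and library numbers come from the sample titles.

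Counts were fitted in edgeR 4.0.16 (R 4.3.3): filterByExpr defaults (12937 genes), TMM scaling, the quasi-likelihood test with group as the only term, and Benjamini-Hochberg adjustment over all tested genes at 0.05. The SE is the log2 fold change divided by the square root of F. CPM values use TMM-scaled totals, and log2 CPM a prior count of 2. The pipeline was tested on simulated data, where the paired fit made more false calls than the set rate and the unpaired fit missed most of the smaller changes. An effect of the library number was built into the simulated libraries, so this outcome cannot show whether pairing is right for the real ones. DSCR3 passed in paired settings only. Within a group, every pair of libraries differed by more than sampling noise (chi-square per gene at least 3.19, using genes whose summed count was 20 or more).

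The labels do not say what a shared number means. Same-numbered libraries deviated from their group means together, with correlations of 0.563, 0.467 and 0.535 across 12937 genes, each above 0.1, so libraries of the same number were treated as pairs, on the data rather than on a label. The paired fit adds the number as a block. Alternatives were other scalings and filters, DESeq2 1.42.0, limma 3.58.1 voom, an adjusted p of 0.01 and leaving out each library. The paired fit under other scalings, filters and tools was added after seeing the data.

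Exon lengths, overlaps and gene positions came from GENCODE 29 (GRCh38). Named genes were all members, BMI1 and COMMD3, list genes past the threshold in either fit with up to 3 others per list of smallest unpaired p, and the 3 genes most like DSCR3. CCDC93, VPS35 and genes that overlap a member were named beyond this rule, after their values were seen. The members and lists were chosen with earlier results of these data known. Protein and hairpin sequences were not used here.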

Additional observations from a re-analysis of the deposited data

How the results depend on the processing

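The count of members past the threshold was 0 in every unpaired setting and 1 with the replicate block (DSCR3), also with RLE factors, total counts, voom, no filter or a filter of 1 CPM, 0 with DESeq2, and 0 to 2 when a pair was left out. Over all genes the unpaired fit gave 0, without a filter 2, with DESeq2 126, and 0 to 665 when a library was left out, 665 being without knockdown library 1. The replicate block gave 1296 (599 higher, 697 lower), with RLE factors 1335, total counts 1283 (494 higher, 789 lower), DESeq2 590, voom 1390, no filter 2171, 1 CPM 1328, and 1320, 2296 and 912 without pair 1, 2 and 3. For the related lists with BMI1 and COMMD3 (0 of 56 unpaired) the counts were 1 without a filter, 2 with DESeq2 and 0 to 6 without a library. With the block they were 11, with RLE 11, total counts 10, DESeq2 8, voom 11, no filter 13, 1 CPM 11, and 9, 17 and 7 without pair 1, 2 and 3. The median per-length level was 10.4 CPM per kilobase, 19.0 with the longest transcript, and 9.56 to 10.9 without a control library. The sign of some values near 0 turned, and the cause was not tested. COMMD5 ran from -0.0676 to 0.0823 without a library and came to -0.0190 with the block without pair 2. COMMD10 ran from -0.0777 to 0.0345 and came to 0.0227 in that setting, and FAM45A from -0.0559 to 0.0220 and came to 0.00444. VPS26A ran from -0.159 to 0.0139, LRP1 from -0.0244 to 0.476, and VPS29 from -0.0765 to 0.0815. VPS29 was -0.00949 with total counts, -0.0120 with total counts and the block, and -0.00920 and -0.0891 with the block without pair 1 and pair 3. Depth limits COMMD8 most, with a counting error of 7.12 to 10.8% per library, against 4.07 to 5.69% for DSCR3.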

Other observations

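COMMD1 is known to act with cullin ubiquitin ligases in the turnover of NF-kB, and a list of 17 genes linked to COMMD1 was examined. It held cullin and NF-kB genes and also SOCS1, XIAP, HIF1A, SOD1 and CCS. In the paired fit 2 were lower, 0 were higher and 15 did not pass, beside 5.39% and 4.63% of all genes, and the unpaired fit gave 0. The median unpaired log2 fold change was 0.03. NFKB2, the precursor of the p52 subunit of the alternative NF-kB pathway, was at 42.8, 39.3 and 44.3 CPM in the controls and at 31.6, 17.3 and 27.3 CPM with knockdown (paired -0.76, SE 0.135, adjusted p 0.0244). Its groups did not overlap, and knockdown library 2 was lowest, with an unpaired value of -0.52 without it. CUL4A, a cullin scaffold, was at 117.0, 119.3 and 126.0 CPM and then at 104.2, 74.5 and 94.5 CPM (paired -0.42, SE 0.0945, adjusted p 0.0327). RELB, the partner of p52, was on the other side, at 13.8, 14.2 and 14.7 CPM and then at 22.5, 17.0 and 20.6 CPM. It did not pass (0.48, SE 0.134, adjusted p 0.0556), though its groups did not overlap. CUL5 was at 0.15 and XIAP at 0.14 in both fits. XIAP was at 0.08 unpaired without knockdown library 2, and CUL5 at 0.04 paired without pair 2. The list was written with earlier results of these data known.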
